A study of Equus caballus with 31 samples.

Results

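Integrins are the paired receptors with which cells hold on to matrix and to each other, and together with the selectins, the immunoglobulin-family counter-receptors and the tetraspanins they decide where leukocytes stop and what stromal cells grip. The genes described here were chosen by symbol from a list of 38: 26 integrin subunits, P-selectin and its ligand, 7 immunoglobulin-family adhesion molecules and 3 tetraspanins. Rows with these symbols were found for 34 of the 38 in both tables, out of 17538 genes in the fluid table and 17410 in the blood table. They comprised 7 subunits of leukocyte integrins (the ITGB2 and ITGB7 families and ITGA4), 16 of matrix-binding integrins, SELP, 7 immunoglobulin-family genes and 3 tetraspanins. ITGAD, ITGAV, ITGB6 and SELPLG matched no row by symbol and are not analysed here.

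An integrin is an alpha chain bound to a beta chain, and the pairing sets the ligand. ITGB2 (CD18) is the common beta chain of LFA-1 (with ITGAL), Mac-1 (with ITGAM) and CR4 (with ITGAX), which bind ICAMs and, for the latter pair, complement fragments; ITGA4 pairs with ITGB1 to bind VCAM1 and with ITGB7 to bind MAdCAM-1. In a joint, leukocytes from blood use these receptors to enter the synovium and fluid, while synovial fibroblasts and macrophages use beta-1, beta-3 and beta-5 integrins on fibronectin, collagen, laminin and vitronectin.

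The samples were cells pelleted from hyaluronidase-digested synovial fluid and peripheral blood mononuclear cells (PBMC), labelled as mixed mononuclear cells, of horses of genotype WT. Horses with naturally occurring osteoarthritis (OA) gave 5 fluid and 6 blood samples, and healthy horses gave 11 fluid and 9 blood samples; 13 horses gave both. Disease was assigned from lameness examination, radiographs and joint analgesia, and recently medicated or injected horses were not enrolled. Age, sex, joint and batch are not in the labels used here. Poly(A) RNA was sequenced, and each value below is a median-ratio normalized read count, scaled separately in the 2 tables, so that levels are compared only within a tissue.

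Recovered reads numbered 25.9 to 35.4 M per library in OA fluid, 26.5 to 36.3 M in healthy fluid, 31.7 to 34.8 M in OA blood and 23.9 to 32.2 M in healthy blood. The cell types in the pellets differed between libraries. T cell markers were expressed in every fluid library, but their summed level was 5689 to 24046 in OA and 25327 to 93904 in healthy fluid. The summed level of synovial fibroblast markers ran from 1384 (OA_9570, with 2 of 11 markers at 0) to 647989 (OA_2615) in OA fluid and from 805 to 129291 in healthy fluid, where ORC_188 and ORC_205 (58397) were highest. In such bulk RNA, fewer cells of a type and less RNA per cell cannot be told apart.

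In OA fluid the adhesion genes moved both ways: 7 of the 33 tested rose and 4 fell. ITGAL, ITGB7 and ITGA4, chains of leukocyte integrins, fell together with the collagen receptor chain ITGA1. ITGAX, ITGA5, ITGA7, ITGB5, VCAM1, CD9 and CD151 rose. The share called, 33.3%, stood beside 28.1% of all 13885 genes tested in fluid, of which 14.4% were higher and 13.6% lower (limma, adjusted p below 0.05), so it is near the background and is not a result about the group as such. The members' median log2 change was 0.29, against 0.08 over all genes tested. In each of the 11 called genes the OA and healthy ranges overlapped. ITGA8, with a mean below 10, was left out of the test.

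**Figure D1:**
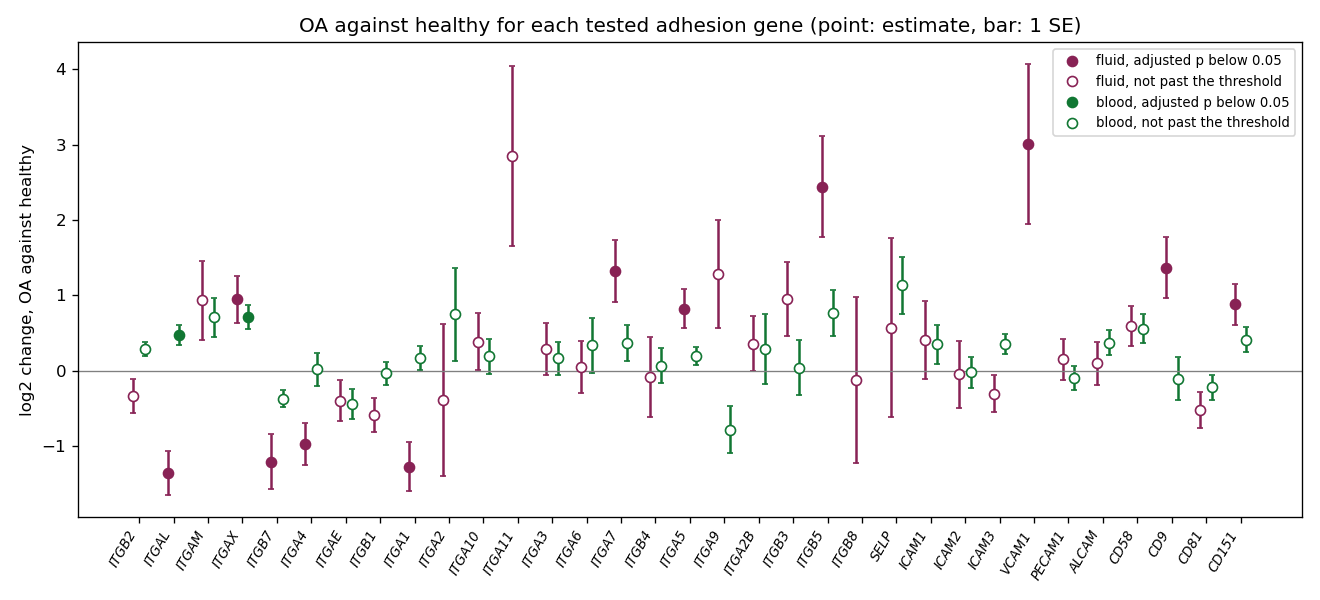
Estimated log2 change of OA against healthy (points) with 1 standard error (bars) for each tested adhesion gene in fluid and in blood; filled points passed an adjusted p of 0.05. In fluid 7 filled points lie above 0 and 4 below, and in blood ITGAL (0.47) and ITGAX (0.71) are filled.

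The leukocyte integrins split within the group. ITGAL, the alpha chain of LFA-1, stood at 2684 (OA_2615), 4324 (OA_3850), 4643 (OA_1038), 8009 (OA_9350) and 8155 (OA_9570) in OA fluid and at 6671 to 22240.0 (median 12995) in healthy fluid. The OA horses OA_2615, OA_3850 and OA_1038 lay below every healthy horse, and 10 of 11 healthy horses lay above every OA horse. The difference was -1.36 ± 0.29 (log2, SE; limma adjusted p = 0.00378), and it passed the threshold in each of the 11 other settings (pseudocount, filter, scaling, weights, tool or a pair of libraries left out) and with each of the 16 fluid libraries left out in turn.

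ITGB7, the beta chain of the gut-homing and epithelium-binding integrins, was 689.8 (OA_2615), 2167 (OA_3850), 2341 (OA_1038), 2539 (OA_9350) and 4372 (OA_9570) in OA fluid, against 2309 to 9115 (median 4933) in healthy fluid. OA_2615 and OA_3850 lay below every healthy horse, OA_2615 by a wide margin, and the other 3 OA horses lay inside the healthy range. ITGB7 fell by 1.21 ± 0.36 on the log2 scale (SE; limma adjusted p = 0.021); without OA_2615 the fall was 0.81 on the log2 scale, with an adjusted p of 0.0772. For ITGA4, the alpha chain shared by the VCAM1 and MAdCAM-1 receptors, OA values were 3299 (OA_2615), 5042 (OA_3850), 5439.7 (OA_9350), 5499.7 (OA_1038) and 6219.8 (OA_9570), against 5422 to 17402 (median 10882) in healthy fluid. OA_2615 and OA_3850 were below every healthy horse and the other OA horses stood at the lower edge of the healthy range. ITGA4 fell by 0.97 ± 0.28 on the log2 scale (SE; limma adjusted p = 0.0161), and without OA_2615 the adjusted p was 0.0579.

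Markers of T cells and of cytotoxic and NK cells moved with these chains. In OA fluid 7 of 8 T cell markers fell (median log2 change -2.08, with CD247 at -2.37 and CD3D at -2.22). So did 7 of 8 cytotoxic and NK cell markers (median -2.04). Each share, 87.5%, stood beside 13.6% of all fluid genes called lower. Of 6 B cell markers tested, 1 was called lower (CD79A), and all 6 estimates were negative (median -1.45). Summed B cell levels overlapped, with 377 to 2093 in OA and 1061 to 38550 in healthy fluid. The lowest summed T cell level, 5689, was in OA_2615, the library with the lowest ITGAL, ITGB7 and ITGA4. The part of cell makeup in the fall of ITGAL, ITGB7 and ITGA4 was not tested.

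ITGAX (CD11c), the alpha chain of CR4 on macrophages and dendritic cells, went the other way, with 9467 (OA_1038), 17251 (OA_2615), 22030.1 (OA_9570), 22329 (OA_9350) and 26391 (OA_3850) in OA fluid. Healthy fluid held 6236 to 23346 (median 8114), and among the healthy horses only ORC_202 and ORC_205 were high (21881 and 23346). OA_1038 lay with the remaining healthy horses, and the other 4 OA horses lay above them. ITGAX rose by 0.95 ± 0.32 on the log2 scale (SE; limma adjusted p = 0.0326), but the call was lost without OA_2615, OA_3850, OA_9350, OA_9570 or ORC_201 (adjusted p from 0.0527 to 0.0947), with every library scaled to an equal total (0.0713), with quantile normalization (0.0513) and in edgeR (0.0584). ITGAX (EquCab3.0 13:19558098-19623196) and ITGAM (13:19637634-19675213) are neighbouring paralogs. How the counting treated any reads shared by ITGAX and ITGAM is not given and was not tested.

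The remaining leukocyte chains did not pass in fluid. ITGAM (CD11b), the Mac-1 alpha chain of myeloid cells, was 3779.8 (OA_1038), 13589 (OA_3850), 25409 (OA_9350), 32616 (OA_2615) and 37356 (OA_9570) in OA fluid and 3236 to 35955 (median 8833) in healthy fluid. Only OA_9570 exceeded the highest healthy horse, ORC_205, and OA_1038 was among the lowest of both groups. The log2 difference was 0.94 ± 0.53 (SE, adjusted p = 0.186). Without OA_1038, ITGAM gave 1.49 with an adjusted p of 0.0305. ITGB2, the common beta chain, had a log2 difference of -0.33 ± 0.23 (SE, adjusted p = 0.277); it passed as lower with quantile normalization (-0.71, adjusted p = 0.0224) and with library weights (-0.42, 0.0434). ITGAE, the alpha chain that binds E-cadherin with ITGB7, differed by -0.40 ± 0.27 (SE, adjusted p = 0.274). Among monocyte markers 1 of 5 tested rose in OA fluid (VCAN), with 3 positive estimates and a median log2 change of 0.61. Among resident macrophage markers 1 of 7 rose (CD163), with 7 positive estimates and a median of 1.18. These shares, 20% and 14.3% on short lists, stood beside 14.4% of all fluid genes called higher. Dendritic cell markers leaned lower, with 0 of 6 called, 2 positive and 4 negative estimates and a median of -1.07. Summed macrophage levels were 36635 to 455910 in OA and 7958 to 496022 in healthy fluid. The part of these markers in the ITGAX difference was not tested.

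**Figure D2:**
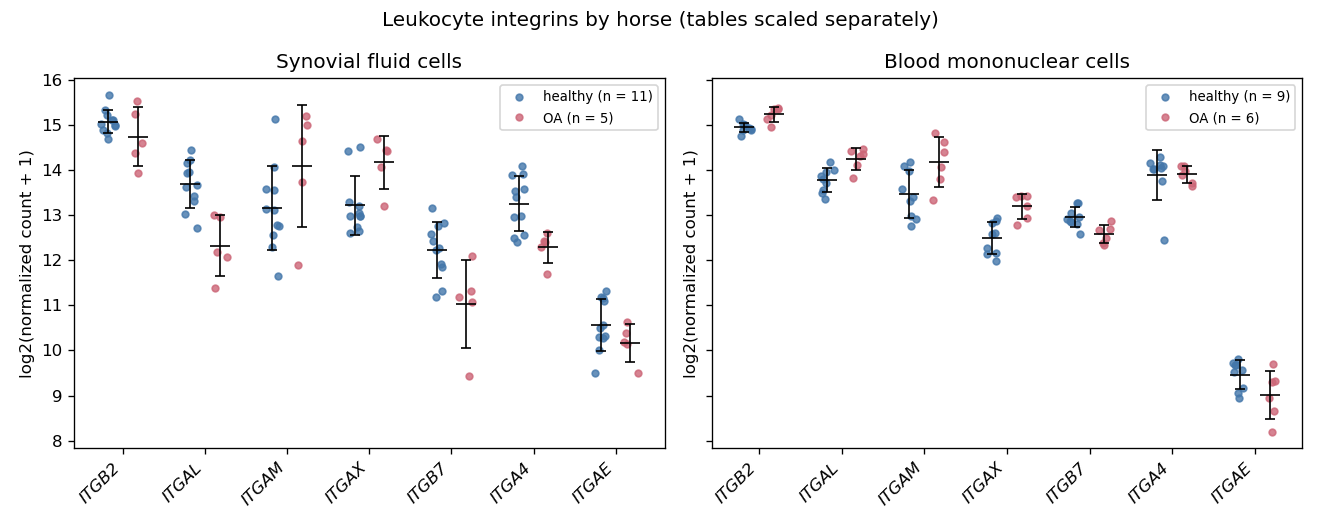
Log2(normalized count + 1) of 7 leukocyte integrin genes in each horse (points), with the group mean and 1 SD (bars), in fluid and blood cells; the 2 tables were scaled separately. In fluid, the OA points of ITGAL, ITGB7 and ITGA4 sit low and those of ITGAX high, while in blood ITGAL is higher in OA (14569 to 22486, against 10431 to 18446).

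Among the 15 matrix-binding integrins tested in fluid, 3 rose and 1 fell, with a median log2 change of 0.36; the 26.7% called is near the 28.1% of all genes. ITGA1, which with ITGB1 forms a collagen receptor found on stromal cells and on tissue-resident and activated lymphocytes, was 807 (OA_9570), 835 (OA_9350), 1264 (OA_2615), 1648 (OA_1038) and 1724 (OA_3850) in OA fluid. Healthy fluid held 1047 to 4859 (median 3677); OA_9570 and OA_9350 were below every healthy horse, and 9 of 11 healthy horses were above every OA horse. ITGA1 fell by 1.27 ± 0.32 on the log2 scale (SE; limma adjusted p = 0.00909), and like ITGAL it passed in each of the 11 other settings and 16 leave-outs. Its neighbour on chromosome 21, ITGA2 (EquCab3.0 21:19515225-19604987, beside ITGA1 at 21:19631076-19772923), which codes for another collagen-binding chain, was at low levels, from 0 to 75.2 in OA and 0 to 60.7 in healthy fluid.

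ITGB5, a beta chain that pairs with the alpha-V chain to bind vitronectin, had the largest rise among the integrins that passed. It was 2859 (OA_9570), 6105 (OA_9350), 7697 (OA_3850), 14544 (OA_2615) and 16191 (OA_1038) in OA fluid and 176 to 6512 (median 1199) in healthy fluid. OA_3850, OA_2615 and OA_1038 lay above every healthy horse, and OA_9570 and OA_9350 lay inside the healthy range. ITGB5 rose by 2.44 ± 0.67 on the log2 scale (SE; limma adjusted p = 0.0147) and passed in each of the 11 other settings and 16 leave-outs, with adjusted p up to 0.0473.

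ITGA5, the alpha chain of the fibronectin receptor, was 5268 (OA_1038), 6149.7 (OA_9350), 12046 (OA_3850), 13599 (OA_9570) and 14260.5 (OA_2615) in OA fluid, against 3958 to 10444 (median 4770.0) in healthy fluid. OA_3850, OA_9570 and OA_2615 exceeded every healthy horse, while OA_1038 and OA_9350 lay within the healthy range. The rise was 0.82 ± 0.26 on the log2 scale (SE; limma adjusted p = 0.025); the call was lost without OA_2615 (adjusted p = 0.0863), OA_3850 (0.0721) or OA_9570 (0.0595), with equal totals (0.0957) and without OA_9570 and ORC_202 together (0.0758). ITGA7, a laminin-binding alpha chain, was 7358 (OA_1038), 10057 (OA_3850), 11770.4 (OA_9570), 14763 (OA_9350) and 18208 (OA_2615) in OA and 1306 to 10922 (median 5743) in healthy fluid. The lowest OA value of ITGA7 stood above 7 healthy horses, and OA_9570, OA_9350 and OA_2615 stood above all of them. ITGA7 rose by 1.32 ± 0.41 on the log2 scale (SE; limma adjusted p = 0.0248), with adjusted p of 0.0756 without OA_2615 and 0.0606 without OA_9350.

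ITGA11, a collagen-binding alpha chain of fibroblasts, was 0 (OA_9350), 90.01 (OA_3850), 92.9 (OA_9570), 94.9 (OA_1038) and 172 (OA_2615) in OA fluid and from 0 to 31.1 in healthy fluid. A count of 0 allows up to 3 reads. The other 4 OA horses lay above every healthy horse, yet with OA_9350 at 0 the difference was 2.85 ± 1.19 (SE, adjusted p = 0.0792). ITGA11 passed in edgeR (log2 3.05, adjusted p = 0.0469), in DESeq2 (3.13, 0.0233) and with a pseudocount of 8 (2.14, 0.0167), and without OA_9350 its limma difference was 4.203 (adjusted p = 0.0106).

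The beta-1 chain itself, ITGB1, partner of most of these alpha chains, was 12062 (OA_9570), 15577 (OA_1038), 16934 (OA_9350), 20363 (OA_3850) and 30657 (OA_2615) in OA and 17598 to 36625 (median 28693) in healthy fluid, a difference of -0.58 ± 0.23 (SE, adjusted p = 0.0637). It passed with equal totals (-0.79, adjusted p = 0.0206), with quantile normalization (-0.91, 0.0135) and in DESeq2 (-0.55, 0.0496). ITGA9, a tenascin and VCAM1 receptor chain, was 235 (OA_1038), 327 (OA_9570), 1067 (OA_3850), 1174 (OA_9350) and 1769 (OA_2615) in OA fluid, with a difference of 1.28 ± 0.71 (SE, adjusted p = 0.183); it passed without ORC_188 and ORC_205 (1.79, adjusted p = 0.0302) and with library weights (1.81, 0.0104). ITGB3, the beta chain shared by platelet and vitronectin receptors, differed by 0.95 ± 0.49 (SE, adjusted p = 0.151). Without OA_9570, ITGB3 gave 1.44 (adjusted p = 0.0221). The log2 differences of ITGA2, ITGA3, ITGA6, ITGA10, ITGB4, ITGA2B and ITGB8 lay between -0.38 (ITGA2) and 0.39 (ITGA10), and none of these 7 passed. ITGA8 was listed at 0 in OA_9350 and OA_9570 and reached 54.0 in OA_2615; its highest healthy value was 8.90.

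**Figure D3:**
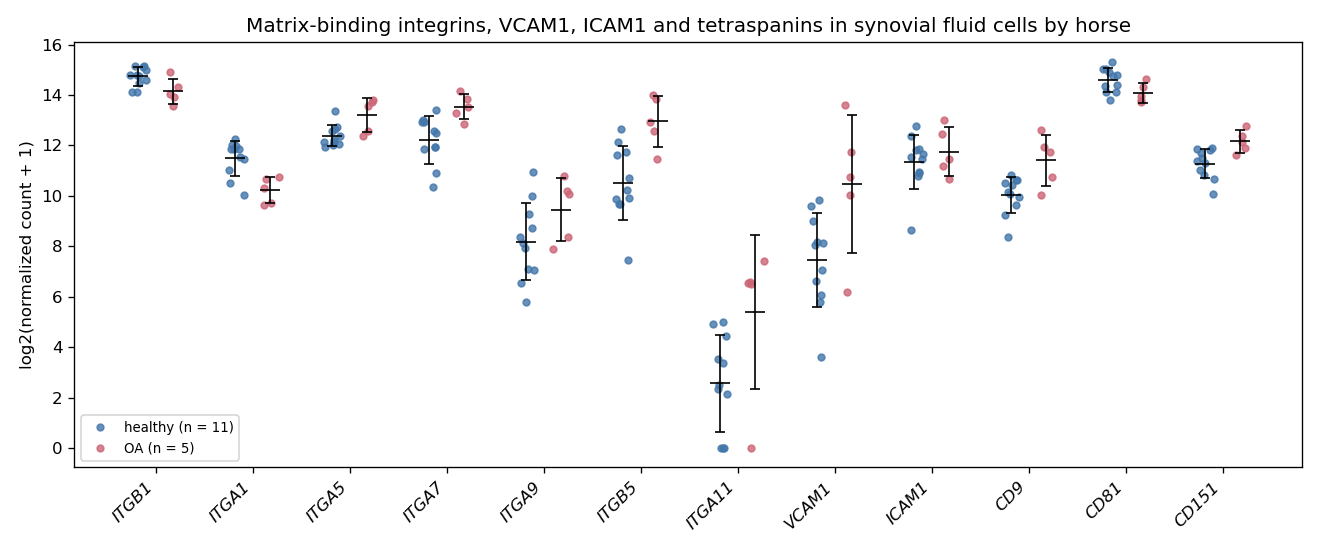
Log2(normalized count + 1) in fluid cells of each horse (points), with the group mean and 1 SD (bars), for 7 matrix-binding integrin genes and for VCAM1, ICAM1, CD9, CD81 and CD151. ITGB5 and VCAM1 spread over the widest range between horses among the genes that rose, and OA_9350 is at 0 for ITGA11.

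Synovial fibroblast markers leaned higher in OA fluid: all 11 tested had a positive estimate and 3 rose, COL6A3 and PDPN among them. The 27.3% called higher, on a short list, stood beside 14.4% of all fluid genes. The median log2 change of the fibroblast markers was 3.41. Of the matrix-binding chains, ITGB5, ITGA5 and ITGA7 rose too, while ITGA1 fell and ITGB1 had a negative estimate. OA_9570, with a summed fibroblast marker level of 1384, had the lowest OA values of ITGB5, VCAM1, ITGB3 and ITGB1. It was above every healthy horse for ITGA5 and ITGA7. Healthy ORC_205 and ORC_188, high in those markers, had ITGB5 of 6512 and 3397. The part of the fibroblast markers in the ITGB5, ITGA5, ITGA7 and VCAM1 differences was not tested.

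Of the immunoglobulin-family genes, VCAM1, the endothelial and fibroblast counter-receptor of ITGA4/ITGB1, rose. VCAM1 was 71.4 (OA_9570), 1052 (OA_1038), 1730.3 (OA_3850), 3434 (OA_2615) and 12465 (OA_9350) in OA fluid and 11.3 to 909 (median 262) in healthy fluid. All OA horses except OA_9570 lay above every healthy horse, and OA_9350 stood far above the rest. VCAM1 rose by 3.01 ± 1.06 on the log2 scale (SE; limma adjusted p = 0.0442); the call was lost in 10 of 16 leave-outs (adjusted p up to 0.138, without OA_9350, with a log2 change of 2.22) and with equal totals (0.0553). Without OA_9570 the change was 4.08 (adjusted p = 0.00477).

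ICAM1, the counter-receptor of LFA-1 and Mac-1, was 1621 (OA_1038), 2333 (OA_9570), 2785 (OA_3850), 5616 (OA_2615) and 8316 (OA_9350) in OA and 403 to 6997 (median 2989) in healthy fluid, a difference of 0.41 ± 0.51 (SE, adjusted p = 0.57). Its neighbour ICAM3, a leukocyte ligand of LFA-1 (EquCab3.0 7:51441976-51447345, with ICAM1 at 7:51481225-51489203), was 9214 (OA_1038), 11014 (OA_9350), 16262 (OA_2615), 16660.3 (OA_3850) and 36564 (OA_9570) in OA fluid and 13786 to 25294 (median 19674) in healthy fluid. OA_9570 alone was high for ICAM3, and without it the difference moved from -0.30 ± 0.25 (SE, adjusted p = 0.369) to -0.60 (adjusted p = 0.0262). CD58, the ligand of CD2, differed by 0.59 ± 0.26 (SE, adjusted p = 0.0971), and without OA_1038 it gave 0.81 (adjusted p = 0.035). ICAM2, PECAM1 and ALCAM had differences between -0.05 (ICAM2) and 0.15 (PECAM1) and did not pass. SELP (P-selectin), which platelets and endothelium store for rolling leukocytes, was 122 (OA_2615), 648 (OA_1038), 715 (OA_9350), 1338 (OA_3850) and 7809.7 (OA_9570) in OA fluid and 67.3 to 10473 (median 293) in healthy fluid. OA_9570, ORC_196 (7948) and ORC_202 (10473) were high for SELP, and the difference was 0.57 ± 1.18 (SE, adjusted p = 0.741).

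The tetraspanins, membrane organizers that travel with integrins, did not move as one. CD9 was 1052 (OA_9350), 1702 (OA_9570), 3449.6 (OA_1038), 3938 (OA_3850) and 6216 (OA_2615) in OA fluid, against 334 to 1815 (median 1141) in healthy fluid. OA_1038, OA_3850 and OA_2615 exceeded every healthy horse, and OA_9350 and OA_9570 lay within the healthy range. CD9 rose by 1.37 ± 0.40 on the log2 scale (SE; limma adjusted p = 0.019), with adjusted p of 0.071 without OA_2615 and 0.0559 without OA_3850. CD151, the partner of laminin-binding integrins, was 3117 (OA_1038), 3831 (OA_9350), 4469.8 (OA_3850), 5379 (OA_9570) and 6973 (OA_2615) in OA and 1093 to 3819.7 (median 2647) in healthy fluid. All OA horses but OA_1038 lay above every healthy horse. CD151 rose by 0.88 ± 0.27 on the log2 scale (SE; limma adjusted p = 0.0231), and the call was lost without OA_2615 (0.0799) and with equal totals (0.0522). CD81, a tetraspanin of lymphocytes and many other cells, differed by -0.52 ± 0.24 (SE, adjusted p = 0.106), and was called lower with equal totals (-0.73, adjusted p = 0.0277) and with quantile normalization (-0.81, 0.015).

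**Figure D4:**
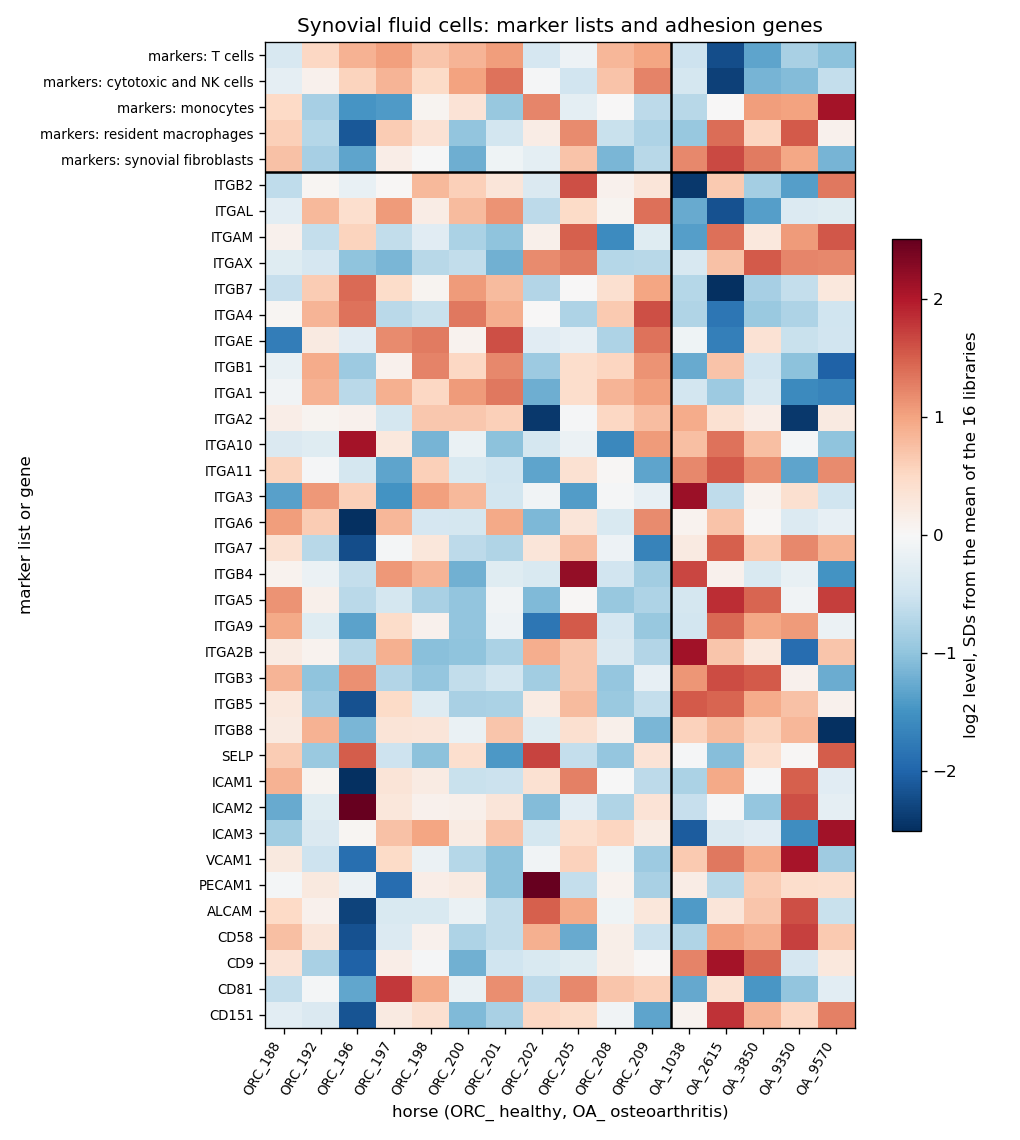
Fluid cells of the 11 healthy (ORC) and 5 OA horses (columns): mean log2 level of 5 marker lists (top rows) and log2 level of the 33 tested adhesion genes (rows below), each in SDs from its mean over the 16 libraries. OA_2615 is the lowest library for ITGAL, ITGB7 and the T cell markers, and OA_9570 is low for ITGB3, ITGB8 and the fibroblast markers, for which the other 4 OA horses are above the mean.

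The fluid counts leaned on scaling. With each library scaled to the same total, the median log2 change of all fluid genes moved from 0.08 to -0.12, and the share of calls that were higher went from 51.4% to 32.0%; quantile normalization gave -0.07 and 40.5%. Each of the 11 called members kept the sign of its log2 change under both, with these shifts not subtracted. CD151, ITGA5, ITGAX and VCAM1 lost their calls with equal totals, and ITGAX also lost its call with quantile normalization. Over all genes, 2006 calls were higher and 1893 lower with all libraries, against 1208 and 1298 without OA_2615, 1288 and 1461 without OA_3850, and 2575 and 2076 without OA_9570.

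Ratios of members within a library do not depend on the scaling of that library. On the log2 scale, ITGAX relative to ITGAL was 1.03 to 2.68 (median 1.48) in OA fluid and -1.62 to 1.71 (median -0.76) in healthy fluid. ITGA5 relative to ITGA4 was -0.06 to 2.11 (median 1.13) in OA and -1.93 to 0.36 (median -1.01) in healthy fluid. CD9 relative to CD81 was -3.91 to -1.77 in OA and -5.40 to -3.31 in healthy fluid. In these 3 ratios the OA medians were higher and the ranges overlapped. The upper gene of each was called higher in fluid, and the lower gene was called lower or had a negative estimate. The higher medians follow from that and are no further support. For ITGAX relative to ITGAL, OA_2615 (2.68) and OA_3850 (2.61) lay above every healthy horse. In contrast, ITGB1 relative to ITGB2, the common beta chains, had medians of -0.33 in OA and -0.24 in healthy fluid, with OA_9570 lowest at -1.97. In blood, ITGAX relative to ITGAL was -1.57 to -0.69 in OA and -1.83 to -0.63 in healthy horses, so the OA range lay inside the healthy one. The ratios describe unequal levels and carry no test.

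**Figure D5:**
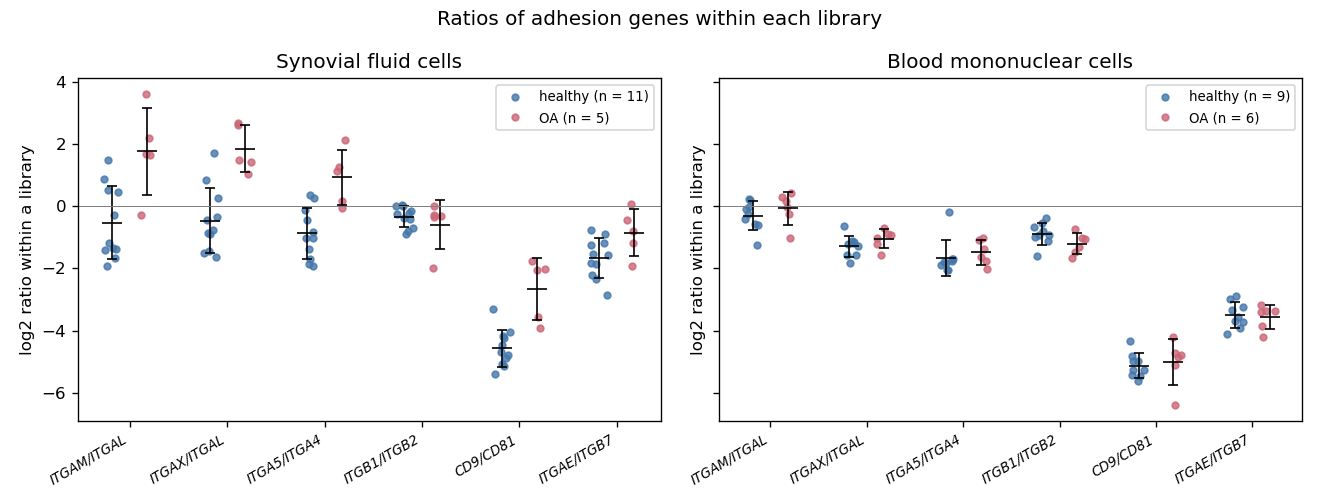
Log2 ratio of the normalized counts of 2 genes within each library (points), with the group mean and 1 SD (bars), for 6 gene pairs in fluid and blood cells. In fluid the OA points of ITGAX/ITGAL (1.03 to 2.68) lie in the upper part of the healthy range (-1.62 to 1.71) or above it, whereas in blood they lie inside the healthy range.

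In OA blood, 2 of the 30 tested members rose, ITGAL and ITGAX, and the share of 6.67% stood beside 5.4% of the 13072 genes tested, of which 3.2% were higher and 2.2% lower. No member was called lower in the main limma fit or in edgeR, and DESeq2 called 1 lower (ITGB7). At an unadjusted p below 0.05, 3 members were lower in the main limma fit. ITGA8, ITGA11, ITGB8 and VCAM1 had means below 10 in blood and were left out. The median log2 change of the tested members was 0.24, against 0.02 over all genes. No matrix-binding integrin of 13 passed in the main limma fit, edgeR or DESeq2. At an unadjusted p below 0.05 the main limma fit had 1 higher and 1 lower.

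ITGAX in blood was 7078 to 11007 (median 10104) in OA and 4048 to 7801 (median 6145) in healthy horses. OA_4110, OA_9350, OA_2615, OA_3850 and OA_9570 lay above every healthy horse, and OA_1038 lay among them. ITGAX rose by 0.71 ± 0.16 on the log2 scale (SE; limma adjusted p = 0.0255); without OA_3850, OA_9350 or OA_9570 the adjusted p was 0.0816, 0.0695 and 0.0774, with log2 changes of 0.67 to 0.71. ITGAL was 14569 to 22486 (median 20659.8) in OA and 10431 to 18446 (median 14363) in healthy blood. OA_2615, OA_1038, OA_9350 and OA_9570 lay above every healthy horse. ITGAL rose by 0.47 ± 0.13 on the log2 scale (SE; limma adjusted p = 0.0476), and this call held in only 3 of 15 leave-outs, with adjusted p up to 0.131 in the others and log2 changes of 0.42 to 0.56. The ITGAL call in blood was also lost without a filter on low values (0.0601), with equal totals (0.0701) and with quantile normalization (0.0596).

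The calls over all blood genes also rested on single horses: 418 were higher and 288 lower, but 16 and 17 without OA_3850, 17 and 18 without OA_9350 and 14 and 17 without OA_9570. OA blood libraries were deeper, and some markers of myeloid cells were higher in them. Among monocyte markers 2 of 5 tested rose (VCAN by 1.43 and CCR2 by 1.17 on the log2 scale), with a summed level of 86816 to 217788 in OA and 40482 to 110602 in healthy blood. Neutrophil markers, of which 1 of 4 tested rose (S100A12), summed to 31726 to 69637 in OA and 8066 to 38815 in healthy blood. The 40% of monocyte and 25% of neutrophil markers called higher, on short lists, stood beside 3.2% of all blood genes. B cell markers went the other way, with 6 of 6 tested estimates negative (median log2 change -0.82) and 1 called (BLK, -1.09, limma adjusted p = 0.0409). The 16.7% called lower stood beside 2.2% of all blood genes. Summed B cell levels were 10857 to 48582 in OA and 21168 to 72076 in healthy blood. No T cell marker of 8 was called in limma, and 3 of them had an unadjusted p below 0.05. The part of these markers and of depth in the ITGAX and ITGAL differences was not tested.

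The other leukocyte chains did not pass in blood in the main limma fit. ITGB2 differed by 0.29 ± 0.09 (SE, adjusted p = 0.0718), ITGB7 by -0.37 ± 0.12 (SE, adjusted p = 0.0671) and ITGAM by 0.71 ± 0.26 (SE, adjusted p = 0.103). DESeq2 called all 3 (adjusted p = 0.00811, 0.0239 and 0.0457). In limma ITGB7 passed as lower with library weights (-0.45, adjusted p = 0.00659), without OA_1038 (-0.43, 0.0353) and without ORC_202 (-0.42, 0.0272). ITGB2 passed as higher with quantile normalization (0.40, 0.0439), with library weights (0.31, 0.012) and without OA_4110 (0.34, 0.0366). ITGAM passed as higher without OA_1038 (0.88, 0.0407). ITGA4 differed by 0.02 ± 0.22 (SE, adjusted p = 0.963) and ITGAE by -0.44 ± 0.21 (SE, adjusted p = 0.193). SELP, with 2449.9 to 8355 (median 3753) in OA and 860.1 to 7794 (median 1589) in healthy blood, differed by 1.14 ± 0.38 (SE, adjusted p = 0.0802); ORC_202 stood far above the other healthy horses, and without it SELP gave 1.39 (adjusted p = 0.0134). Platelet markers summed to 594 to 2112 in OA and 91.2 to 2577 in healthy blood. The blood differences of the other tested members lay between -0.78 (ITGA9) and 0.77 (ITGB5), and none passed. Single leave-outs gave calls for CD58 (0.69 without ORC_202, adjusted p = 0.0135), CD151 (0.52 without ORC_197, 0.0254) and ALCAM (0.50 without OA_1038, 0.0473).

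Whether the OA difference was the same in both tissues was tested for 30 members in 1 fit over all 31 libraries. Differences in both directions passed: 3 lower and 2 higher of 30 (16.7%), beside 22.3% of 12733 genes, 11.9% lower and 10.3% higher. ITGAL, lower in OA fluid and higher in OA blood, had a fluid minus blood difference of -1.83 ± 0.31 (log2, SE; limma adjusted p = 0.000583). ITGA1, which differed in blood by 0.17 ± 0.15 (SE, adjusted p = 0.503), had one of -1.44 ± 0.35 (log2, SE; limma adjusted p = 0.00508). Both passed in each of the 5 other settings, the replicate block included, and with each of the 31 libraries left out.

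The other differences between tissues were less steady. ITGB2 gave -0.62 ± 0.22 (log2, SE; limma adjusted p = 0.0419), ITGA9 2.06 ± 0.75 (log2, SE; limma adjusted p = 0.046) and CD9 1.47 ± 0.53 (log2, SE; limma adjusted p = 0.0449). When the 13 horses with both samples were taken as pairs (replicate block), these became -0.66 (adjusted p = 0.0737) for ITGB2, 1.91 (0.139) for ITGA9 and 1.32 (0.0545) for CD9, none past the threshold. For ITGAX the estimate was 0.24 ± 0.35 (SE, adjusted p = 0.67), so the rise of ITGAX in fluid was not shown to differ from that in blood. ITGA4 gave -0.99 ± 0.39 (SE, limma adjusted p = 0.0635) and ITGB7 -0.84 ± 0.35 (SE, limma adjusted p = 0.0834). With equal totals both passed (-1.21, adjusted p = 0.0399 and -1.05, 0.037). ITGA4 also passed with equal weights (-0.99, 0.0466) and in some leave-outs, as without blood ORC_197 (-0.81, 0.0342). ITGB7 passed without fluid OA_9570 (-1.10, 0.0207) or fluid ORC_202 (-0.94, 0.0407).

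Other genes of the adhesion machinery gave context from lists of related genes. Of 31 adaptor and activation genes tested in fluid, which link integrin tails to actin, 7 rose and 4 fell (median log2 change 0.22); the 35.5% called is near the 28.1% of all fluid genes. SKAP1, an adaptor of T cell adhesion, fell by 2.39 on the log2 scale (limma adjusted p = 0.000865) and FYB1, its partner, fell by 0.82 (0.0071), while ILK, the integrin-linked kinase scaffold, rose by 0.89 (0.00186). In blood 3 of 30 rose and 1 fell, 13.3% beside 5.4% of all blood genes. Those that rose were TNS3, a tensin at integrin tails (0.95, 0.0178), ACTN4, an actin crosslinker (0.35, 0.0363), and FLNA, which binds beta tails (0.47, 0.0383).

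Among 14 surface partners tested in fluid, 1 rose and 3 fell, 28.6% against 28.1% of all genes. CD2, the T cell receptor for CD58, fell by 2.04 (adjusted p = 0.00076), CD6, the T cell receptor for ALCAM, fell by 1.99 (0.00151), and JAM2, a junctional molecule, rose by 2.15 (0.00391). CD58 and ALCAM, the ligands of CD2 and CD6, did not pass in fluid. In blood, 1 of 13 partners was lower, 7.69% called beside 5.4% of all blood genes: SELE (E-selectin), an endothelial gene, fell by 1.91 (0.0265).

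Of 19 matrix and growth factor ligands of integrins tested in fluid, 9 rose, 10 did not pass and 0 were lower (limma; median log2 change 3.04, against 14.4% higher and a median of 0.08 over all genes), and none was lower at an unadjusted p below 0.05 or in edgeR or DESeq2. FN1 (fibronectin, the ligand of ITGA5) rose by 4.06 (adjusted p = 0.00499), THBS1 (thrombospondin-1) by 2.71 (0.00669) and LAMA5 (a laminin chain) by 2.79 (0.0108). In blood 2 of 12 rose and 1 fell: THBS1 rose by 1.94 (0.0235), FN1 rose by 3.73 (0.0424) and NPNT (nephronectin) fell by 1.38 (0.0289). The 25% called, on a short list, stood beside 5.4% of all blood genes. Of 8 enzymes that build selectin ligands, ST3GAL6 fell by 1.43 (0.00226) and FUT7 by 1.70 (0.0208) in fluid, and B4GALT1 rose by 0.45 (0.0474) in blood. Of 15 other tetraspanins and partners, CD82 fell by 1.14 (0.00788) and TSPAN13 rose by 1.92 (0.0203) in fluid, and PTGFRN rose by 0.85 (0.0214) in blood. The shares called were 25% in fluid and 12.5% in blood for the enzymes. For these tetraspanins and partners they were 13.3% and 6.67%, beside 28.1% of all fluid and 5.4% of all blood genes. The T cell and fibroblast markers described above also differed between OA and healthy fluid. Their part in the fluid differences of these genes, and that of the blood markers in the blood differences, was not tested.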

How the data were processed

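RNA from 16 synovial fluid cell pellets and 15 PBMC pellets was analysed. Per the submitters' processing notes, Partek, cutadapt, STAR 2.7.3, HTSeq, DESeq and the horse build EquCab3.0 were named; for settings, strand and shared reads, nothing is given in the sources used here. The authors deposited a linear signal for each gene, read counts divided by median-ratio size factors, in 1 table per tissue. Whole reads were recovered from their steps for 99.85% to 99.98% of values per library (tolerance 0.1 read). For genes with many reads, counting error is small beside the spread between horses. That does not hold for ITGA2, ITGA8, ITGA11 and, in blood, ITGB8 and VCAM1, which rest on few reads.

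Log2(value + 1) was tested with limma 3.58.1 (R 4.3.3; trend, robust, two-sided, Benjamini-Hochberg over all genes with a table mean of at least 10, threshold 0.05). A fit of 4 group means with a variance per tissue tested the fluid minus blood difference over genes passing in both tables. Same-numbered samples come from the same horse by the labels, and in 13 of 13 such pairs deviations from group means correlated above 0.1 (0.123 to 0.391), so they were also fitted as within-horse differences. On the recovered reads, edgeR 4.0.16 called 1947 genes higher and 2039 lower in fluid and 505 and 302 in blood; DESeq2 1.42.0 called 2509 and 2163, and 935 and 750. Other alternatives were pseudocounts of 0.5 and 8, no filter or a mean of at least 50, equal totals, quantile normalization, library weights and leave-outs. The scripts were tested on simulated data.

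The genes, lists and alternatives were chosen with earlier results of these data known. Named were all members, up to 3 genes of smallest p per context list and tissue, and up to 2 per marker list. Replicates differed by more than sampling noise, so none was merged. The cytokine assay of the series is not analysed here.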

Additional observations from a re-analysis of the deposited data

Results flagged for a closer look

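In 8 of 93 gene and group combinations screened, 1 horse stood apart from the rest of its group by Dixon's ratio; chance alone gives about 1 in 20. In healthy blood, ORC_197 was low for ALCAM (477), ITGA4 (5610) and ITGA2 (0), and ORC_202 was high for CD58 (1370.4) and low for ITGA2B (66.1). In OA fluid, OA_9350 stood at 0 for ITGA11 and ITGA2, and OA_9570 at 0 for ITGB8; a 0 allows up to 3 reads. The screen ran on the log2 scale, on which a 0 among low counts lies far from its neighbours. It covered OA fluid, OA blood and healthy blood. Healthy fluid was not screened, so horses standing apart there are not counted.

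The OA difference differed between fluid and blood for 5 members: ITGAL (-1.83), ITGA1 (-1.44), ITGB2 (-0.62), ITGA9 (2.06) and CD9 (1.47), all log2 differences of fluid minus blood. With horses paired, ITGAL and ITGA1 passed and the other 3 did not.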

How the results depend on the processing

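No called member reversed its sign under any alternative. ITGAL, ITGA1 and ITGB5 in fluid, and ITGAL and ITGA1 for fluid minus blood, passed in each alternative run; no blood call did. In fluid, 7 members were higher, against 3 with equal totals, 12 with library weights and 1 to 8 with 1 library left out (1 without OA_2615, 3 without OA_3850). Members lower were 4, against 7 with quantile normalization, 7 with library weights and 3 to 5 in the leave-outs. Leukocyte integrins higher were 1, against 0 with equal totals, quantile normalization and edgeR, 2 with library weights and 0 to 2 in the leave-outs; lower were 3, against 4 with quantile normalization or library weights and 1 to 3 in the leave-outs (1 without OA_2615). Matrix-binding integrins higher were 3, against 6 with library weights and 1 to 3 in the leave-outs; lower was 1, against 2 with equal totals, quantile normalization, library weights or DESeq2 and 1 to 2 in the leave-outs. In blood, members higher were 2, against 1 without a filter or with equal totals, 9 with library weights, 4 with DESeq2 and 0 to 3 in the leave-outs. Leukocyte integrins higher in blood were 2, against 1, 1 and 4 without a filter, with equal totals and with DESeq2, and 0 to 3 in the leave-outs. Members lower in blood were 0, as were leukocyte integrins, both against 1 with library weights or DESeq2 and 0 to 1 in the leave-outs; matrix-binding integrins higher were 0, against 2 with library weights. For fluid minus blood, members higher were 2, against 0 with the replicate block, 0 with equal totals, 1 with equal weights and 0 to 3 in the leave-outs; lower were 3, against 6 with equal totals and 2 to 5. Over all genes the replicate block gave 1352 higher and 1543 lower calls, against 1315 and 1519, and among the members it changed no call other than those of ITGB2, ITGA9 and CD9. Library weights gave 3654 higher and 2981 lower in fluid and 1370 and 942 in blood; equal totals gave 1302 and 2766 in fluid and 797 and 2257 for fluid minus blood. Beyond the scalings and leave-outs themselves, the cause of these moves was not tested.

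Depth limits ITGA2, ITGA8, ITGA11 and, in blood, ITGB8 and VCAM1, which rest on few reads. Only 5 and 6 OA horses were measured, and the part of age, sex and joint, which the labels used here do not give, was not tested.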
